A study of Mus musculus with 15 samples.

Results

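CG-poor promoters were defined as the starts of autosomal protein-coding genes of GENCODE mouse release 21 with 5 to 15 CG dinucleotides within 500 bp on both sides together. Olfactory (Olfr) and vomeronasal (Vmn1r, Vmn2r) receptor genes were left out, which removed 1457 of 20807 starts. Of the 19350 starts that remained, 3713 had 5 to 15 CGs, 946 had 0 to 4, 3952 had 16 to 40 and 10739 had over 40. The choice used the number of CGs and no read.

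The DNA came from 1 embryonic stem cell (ES cell) line of the mouse, E14TG2a, grown on gelatin in medium with LIF and serum, and no group differed in genotype or treatment. hmTOP-seq labels 5-hydroxymethylcytosine (5hmC) with an azide-glucose by a glucosyltransferase (BGT), tethers an oligonucleotide to it and starts sequencing there. The inputs of DNA were 500, 50 and 5 ng, every one in 2 libraries beside 2 controls that got no BGT. uTOP-seq tags unmodified CGs (uCGs), shares the later tethering and priming steps, and was carried out at 300 ng with 3 libraries. The libraries of a group are technical replicates, so every p below measures only the spread between libraries. The 500-ng libraries held 31918445 and 32502791 reads, the 50-ng libraries 22052535 and 23027170, the 5-ng libraries 14884939 and 15277636, and the uTOP-seq libraries 20120568 to 28412885.

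Most promoters of mammals lie in CpG islands, which are kept free of methylation. CG-poor promoters lack such an island, belong mostly to tissue-specific genes and are often methylated where the gene is silent. TET enzymes oxidize 5-methylcytosine to 5hmC, a mark abundant in ES cells, and 5hmC can be lost through further oxidation or cell division. A CG that gives reads in both assays is modified on some strands or copies of the DNA and unmodified on others. Neither assay reads plain 5-methylcytosine.

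The rule fixed the number of CGs, and sequence content tied to that number is given only as a description. The core of the promoters, the 500 bp on each side of the start, had a median GC share of 46.7%, against 60.9% for starts with over 40 CGs, and a median of 10 CGs. TATAAA, searched on both strands in the 50 bases before the start, occurred in 290 of the 3713 promoters (7.81%), in 13.5% of starts with 0 to 4 CGs, in 3.67% with 16 to 40, in 1.39% with over 40, and in 3.68% of all 19350. GGGCGG, the core of the Sp1 site, itself holds a CG and so is tied to the rule. It occurred in 2.61% of CG-poor promoters and in 22.1% of all, and CCAAT in 7.33% and 9.88%. A GENCODE gene start is the outermost annotated end of the gene. Of the 3713, 1216 (32.7%) had a 250-bp bin with 10 or more CGs within 5 kb, bins of the core included.

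The 6 stretches of 120 bases printed here come from the 24 CG-poor promoters richest in 5hmC. They are among the stretches with the most 500-ng reads upstream of a gene start and outside any annotated exon. They hold 2 to 8 CGs each, and other CGs of the same cores carried reads as well. They run 5′ to 3′ on the strand of the gene (plus in all 6), were read from GRCm38.p6 (mm10), and have the CGs in capitals.
Sema3g, chr14:31217697-31217816, 8 CGs: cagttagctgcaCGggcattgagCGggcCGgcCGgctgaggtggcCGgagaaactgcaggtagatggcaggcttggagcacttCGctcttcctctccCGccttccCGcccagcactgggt
Phyhd1, chr2:30265776-30265895, 3 CGs: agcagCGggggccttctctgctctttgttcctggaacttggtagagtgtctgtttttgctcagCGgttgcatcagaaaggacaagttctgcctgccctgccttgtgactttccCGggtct
Lypd5, chr7:24348741-24348860, 5 CGs: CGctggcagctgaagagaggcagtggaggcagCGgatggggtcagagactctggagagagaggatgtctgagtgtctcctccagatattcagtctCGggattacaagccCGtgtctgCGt
Ggt6, chr11:72435385-72435504, 4 CGs: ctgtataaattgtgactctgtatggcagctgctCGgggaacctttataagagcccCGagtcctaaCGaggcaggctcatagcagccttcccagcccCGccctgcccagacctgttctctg
Ropn1, chr16:34649788-34649907, 3 CGs: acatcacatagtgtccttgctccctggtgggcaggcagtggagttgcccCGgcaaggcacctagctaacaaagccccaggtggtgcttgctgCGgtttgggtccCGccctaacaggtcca
Coil, chr11:88969879-88969998, 2 CGs: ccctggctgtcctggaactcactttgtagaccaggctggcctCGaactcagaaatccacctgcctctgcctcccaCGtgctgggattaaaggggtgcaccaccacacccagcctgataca

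The Sema3g stretch held 164 and 168 reads in the 500-ng libraries and 75 and 104 in the 50-ng libraries. Its first CG, at -151 from the start, had 53 and 49 reads at 500 ng, and the last, at -58, had 4 and 2. The Phyhd1 stretch held 83 and 114 reads at 500 ng on 3 CGs, and the Coil stretch 52 and 61 on 2 CGs. In the Sema3g stretch the first and the last CG differed by far more than their replicates. In the Phyhd1 stretch they did not separate in this way: the 3 CGs had 31 and 36, 19 and 35, and 33 and 43 reads at 500 ng, which overlap.

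5hmC was highest at the gene start of CG-poor promoters. Coverage is given in normalized reads per CG, that is reads divided by CGs and scaled to a library of 10000000 reads, summed over the 3713 promoters in bins of 250 bp. In the bin from 0 to 250 bp it was 0.944 ± 0.013 (SD, n = 2) at 500 ng and 0.888 ± 0.0073 (SD, n = 2) at 50 ng. In the bin from -250 to 0 bp it was 0.867 at 500 ng and 0.868 at 50 ng. All 32 bins more than 1 kb away lay between 0.591 and 0.688 at 500 ng and between 0.567 and 0.659 at 50 ng, below both bins at the start. In bins of 50 bp the coverage at 500 ng was 0.595 ± 0.010 from -350 to -300 bp, 0.878 ± 0.012 from -150 to -100 bp, 1.06 ± 0.020 from 0 to 50 bp and 0.714 ± 0.0072 from 300 to 350 bp (SD, n = 2).

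**Figure D1:**
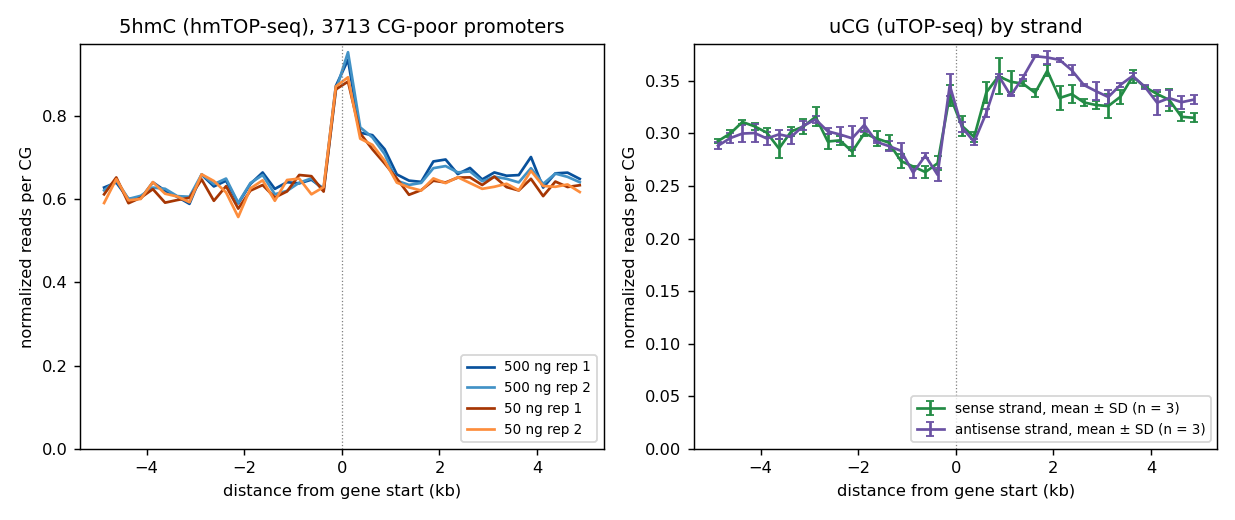
Normalized reads per CG (y axis, scaled to 10000000 reads) in 250-bp bins against the distance from the gene start in kb (x axis), summed over 3713 CG-poor promoters. Left, 1 line for each hmTOP-seq library at 500 and 50 ng, all 4 with their highest values in the 2 bins at the start; right, uTOP-seq by strand of the gene (mean ± SD, n = 3), where the strands lie close together.

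Over the whole core, 5hmC coverage was 0.816 ± 0.0037 at 500 ng and 0.643 ± 0.0035 in the flanks from 1 to 5 kb on both sides (SD, n = 2). Core coverage divided by flank coverage gave 1.27 ± 0.013 for the 500-ng, 1.27 ± 0.0013 for the 50-ng and 1.29 ± 0.00046 for the 5-ng libraries (SD, n = 2 each). It was above 1 on 19 of 19 autosomes at 500 ng (1.03 to 1.53) and on 19 of 19 at 50 ng (1.04 to 1.45). The autosomes thus varied much more than the libraries.

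Unmodified CGs followed another course. uCG coverage (both strands) was 0.607 ± 0.0031 in the core and 0.643 ± 0.0032 in the flanks (SD, n = 3), a ratio of 0.943 ± 0.0063, and the ratio was above 1 on 5 of 19 autosomes. It rose locally from 0.532 ± 0.0088 in the bin from -500 to -250 bp to 0.682 ± 0.019 in the bin just before the start, fell to 0.589 ± 0.0023 from 250 to 500 bp and rose again to 0.710 ± 0.018 from 750 to 1000 bp. Its highest bin was at 1750 to 2000 bp, at 0.732 ± 0.0044. In the bin just before the start the sense strand had 0.336 ± 0.0098 and the antisense strand 0.346 ± 0.010 (SD, n = 3).

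The uCG ratio differed with the presence of a CG-dense bin within 5 kb, which could also lie in the core. Without the 1216 promoters that had a 250-bp bin with 10 or more CGs within 5 kb, the ratio of core to flanks was 1.14 ± 0.016, and with only those promoters 0.919 ± 0.0045 (SD, n = 3). In the 2497 promoters without such a bin, uCG was highest in the bin just before the start, at 0.594 ± 0.024, above all 32 bins beyond 1 kb (0.420 to 0.488). The 5hmC ratio at 500 ng was 1.35 ± 0.013 without a dense bin and 1.36 ± 0.011 with one (SD, n = 2), higher in each subset than in both together. 5hmC stood at 0.792 ± 0.018 and 1.24 ± 0.0029 in the first 250 bp of the 2 subsets.

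**Figure D2:**
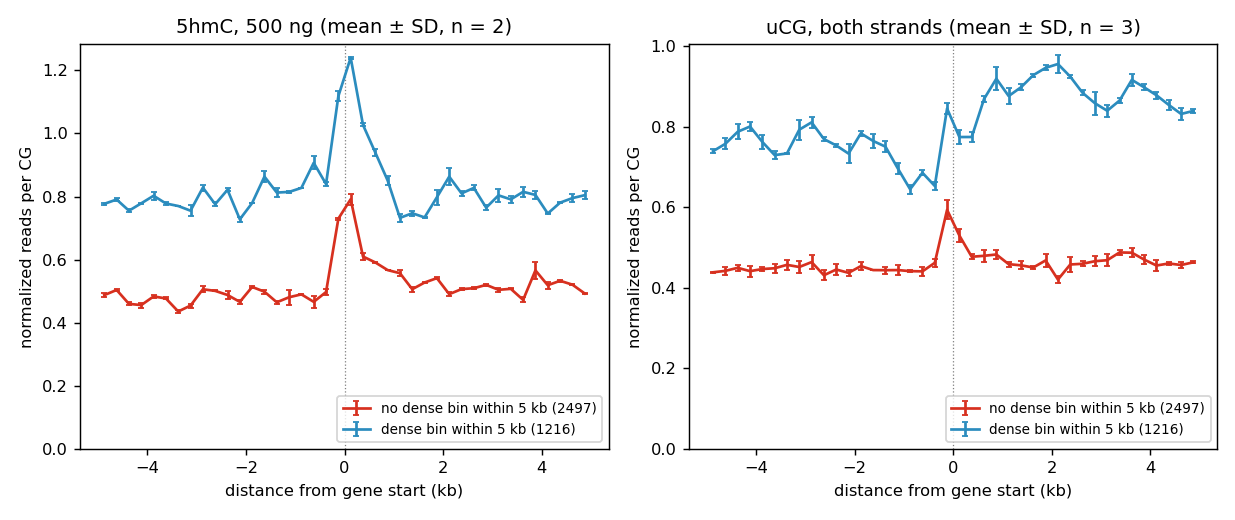
Normalized reads per CG (y axis) in 250-bp bins around the gene start (x axis, kb) for CG-poor promoters without (2497) and with (1216) a bin of 10 or more CGs within 5 kb; lines are means over libraries and bars their SD. 5hmC at 500 ng (left) peaked at the start in both subsets, and uCG (right) peaked just before the start in the promoters without a dense bin, whereas its highest bin lay at 2000 to 2250 bp (0.956) in those with one.

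The 5hmC peak at the start was not particular to CG-poor promoters. Starts with 16 to 40 CGs had it in the same bin, 0 to 250 bp after the start, at 1.05 ± 0.018 at 500 ng and 0.969 ± 0.015 at 50 ng, above the 0.944 ± 0.013 and 0.888 ± 0.0073 of CG-poor promoters (SD, n = 2). In starts with over 40 CGs, 5hmC at 500 ng fell to 0.0578 ± 0.0022 in the first 250 bp, and the ratio of core to flanks was 0.132 ± 0.0021 (SD, n = 2). In starts with 16 to 40 CGs the ratio was 1.23 ± 0.010 and in starts with 0 to 4 CGs 0.657 ± 0.018. The ratio of CG-poor promoters exceeded that of starts with over 40 CGs on 19 of 19 autosomes, that of starts with 16 to 40 CGs on 10 of 19, and that of starts with 0 to 4 CGs on 17 of 19. For uCG the order differed. The uCG ratio was 1.69 ± 0.024 in starts with 16 to 40 CGs and 1.28 ± 0.017 with over 40 (SD, n = 3), and CG-poor promoters lay below both classes on 19 of 19 autosomes.

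**Figure D3:**
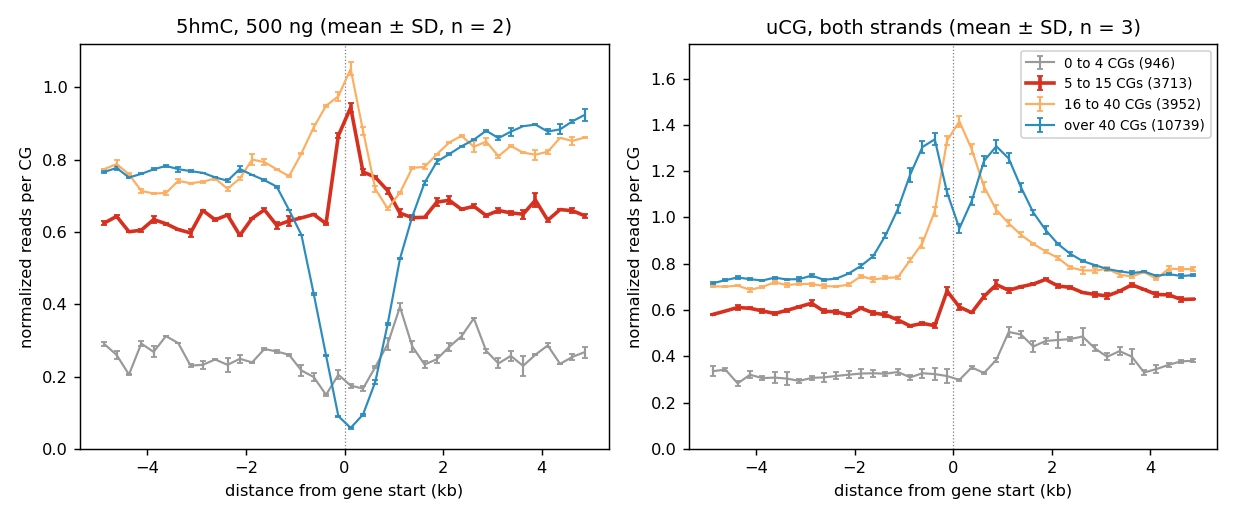
Normalized reads per CG (y axis, mean over libraries with SD) in 250-bp bins around the gene start (x axis, kb) for 4 classes of gene starts by CG number, with the number of promoters in brackets. CG-poor promoters (5 to 15 CGs) rose to 0.944 in 5hmC at the start, where starts with over 40 CGs fell to 0.0578, and had no uCG bin above 0.732.

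Within the class, 5hmC rose with the number of CGs. Coverage per CG in the core at 500 ng was 0.301 ± 0.0095 for the 340 promoters with 5 CGs, 0.849 ± 0.0040 for the 363 with 10 and 1.11 ± 0.0087 for the 289 with 15 (SD, n = 2). The ratio to the flanks was below 1 for promoters with 5, 6 and 7 CGs (0.744 to 0.885), 1.01 with 8 CGs and 1.43 with 15. With 9 CGs it was 1.04 ± 0.0071. Single promoters with few CGs could still have an excess: of 866 tested with 5 to 7 CGs, 117 (13.5%) had higher 5hmC in the core and 148 (17.1%) lower, against 38.9% and 13.7% of those with 12 to 15 CGs. Just outside the class, the ratio was 0.579 ± 0.024 with 4 CGs and 1.67 ± 0.027 with 16. Neighbouring CG numbers differed in an uneven way, with 0.885 ± 0.042 at 5 CGs and 0.744 ± 0.00088 at 6. uCG changed less, with a ratio of 0.821 ± 0.0098 at 5 CGs and 1.03 ± 0.0086 at 15 (SD, n = 3).

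**Figure D4:**
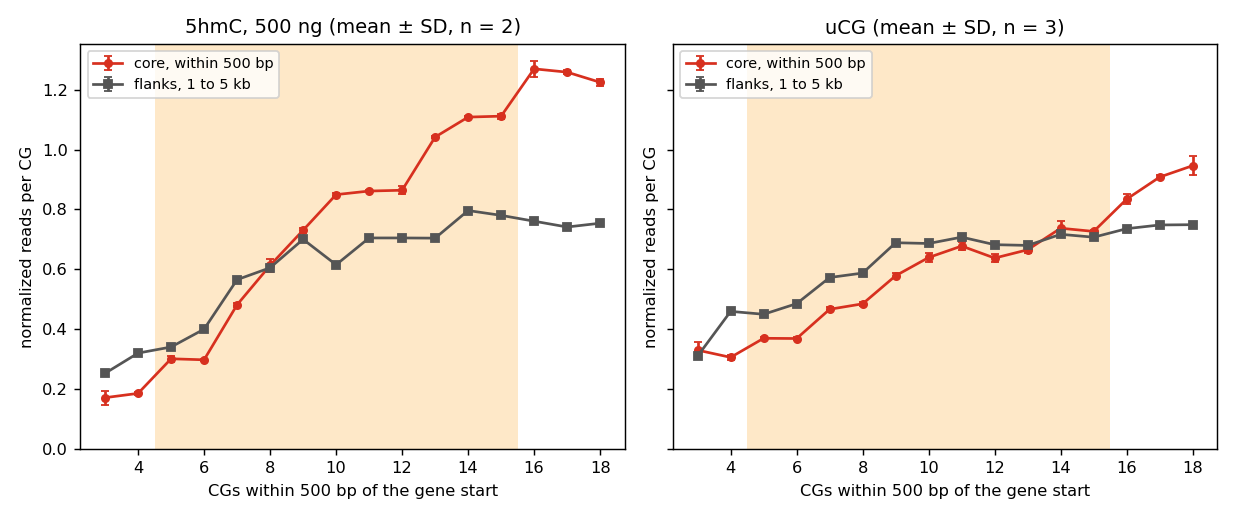
Normalized reads per CG (y axis, mean over libraries with SD) in the core (red) and in the flanks (grey) against the number of CGs within 500 bp of the gene start (x axis), with the CG-poor range shaded. 5hmC at 500 ng in the core was below the flanks up to 7 CGs, within the SD of them at 8 and above them from 9 CGs, and uCG stayed under its flanks from 5 to 13 CGs.

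Coverage also differed between the parts of the gene. Distance from the start was not held equal between these parts, and its share in the differences was not tested. At 500 ng, core CGs in untranslated exons had 1.12 ± 0.011 normalized reads per CG, those in coding exons 0.799 ± 0.013, those in introns 0.696 ± 0.011 and those upstream of the gene 0.754 ± 0.0054 (SD, n = 2). At 50 ng the values were 1.08, 0.733, 0.684 and 0.755. uCG was highest in untranslated exons too, apart from the few CGs of noncoding exons (782, at 0.827 ± 0.037), at 0.721 ± 0.019, against 0.481 ± 0.0056 in coding exons (SD, n = 3). CGs in soft-masked repeats, 10.9% of core CGs, had 0.496 ± 0.0063, and the others 0.855 ± 0.0034 (SD, n = 2).

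The bases next to the CG went with larger differences than the distance from the start. CCGG had 1.76 ± 0.021 normalized reads per CG in the core and 1.30 ± 0.015 in the flanks at 500 ng, and TCGA 0.318 ± 0.042 and 0.261 ± 0.019 (SD, n = 2). Core coverage exceeded the flanks in all 10 classes of neighbouring bases (strands merged), by 1.11 times for ACGA to 1.41 times for CCGC. CCGG made up 8.55% of CGs in the core and 8.19% in the flanks. uCG ranged less, from 0.429 ± 0.0045 for TCGA to 0.925 ± 0.016 for CCGG (SD, n = 3). Whether these differences lie in the DNA or in labeling, priming and amplification was not tested.

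For each promoter, core and flanks were compared within the same libraries with edgeR's quasi-likelihood test at an adjusted p of 0.05. Over the 500-ng and 50-ng libraries, 3407 of the 3713 promoters had enough CGs and reads, and the other 306 were not tested. 5hmC was higher in the core at 920 (27.0%) and lower at 525 (15.4%), with a median fold of 1.13. Over all 18312 starts tested the shares were 15.5% and 62.3%. Here and below, all starts tested include the Olfr, Vmn1r and Vmn2r genes that were left out of the class. uCG was higher in the core at 661 of 3447 CG-poor promoters (19.2%) and lower at 625 (18.1%), against 55.3% and 13.9% of all starts tested. CG-poor promoters therefore changed in both directions at similar rates for uCG, and more often upward than downward for 5hmC.

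The 2 marks tended to move the same way. Of the 917 promoters with higher 5hmC in the core that were tested for both, uCG was also higher at 360 (39.3%) and lower at 85 (9.27%). Of the 521 with lower 5hmC, uCG was lower at 218 (41.8%) and higher at 32 (6.14%). Over all 3374 promoters tested for both, the uCG shares were 19.4% higher and 18.3% lower. Reads need mappable sequence in both assays, and its part in this was not tested. Across promoters, 5hmC at 500 ng and uCG per CG had a Spearman rho of 0.69 (n = 3713), and 0.63 over the 3479 with a read in any of these libraries. As a description, 5hmC had a rho of 0.57 with the GC share of the core and 0.43 with its CG number.

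Upstream and downstream flanks differed little in sum for 5hmC and more for uCG. 5hmC at 500 ng was 0.626 ± 0.00025 upstream and 0.658 ± 0.0063 downstream from 1 to 5 kb (SD, n = 2), and the upstream value was the lower one on 14 of 19 autosomes. In single promoters 5hmC was higher upstream at 788 of 3334 and lower upstream at 922, shares of 23.6% and 27.7%, against 24.6% and 30.4% of all starts tested (edgeR, adjusted p under 0.05). uCG was 0.595 ± 0.0051 upstream and 0.685 ± 0.0016 downstream (SD, n = 3), lower upstream on 18 of 19 autosomes. It was higher upstream at 584 of 3425 promoters (17.1%) and lower at 895 (26.1%), against 16.6% and 31.4% of all. Members and background had like shares.

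Strand differences of uCG at the core were few. The sense strand had more reads at 105 of 2507 promoters (4.19%) and the antisense strand at 87 (3.47%), against 16.8% and 15.5% of all starts tested, with 1206 promoters not tested for low counts. The median fold was 1.01. Without 1 of the uTOP-seq replicates the counts fell to between 40 and 62 for sense and between 41 and 60 for antisense. CG-poor cores hold fewer CGs and reads than other cores, and how far that lowers the share of calls was not tested.

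DNA input changed no single promoter past the threshold. Between 50 and 500 ng, 0 of 2540 CG-poor promoters were higher and 0 lower at 50 ng in edgeR, as in all 12051 starts tested (0%), with 149 at an unadjusted p under 0.05. DESeq2 called 0 as well, with 119 at an unadjusted p under 0.05. The result hung on the spread between the 50-ng libraries. Without 50-ng replicate 1, 76 promoters were called higher and 74 lower, and without 50-ng replicate 2, 106 and 133, where the lone 50-ng library was taken to vary like the 500-ng pair. Reads per CG of the 3713 promoters correlated with r = 0.93 between the 500-ng replicates, 0.78 between the 50-ng replicates and 0.91 between the means of the inputs.

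Control libraries without BGT held almost no reads. In the 36190 core CGs of the CG-poor promoters the 500-ng libraries had 95626 and 94519 reads and their controls 26 and 21. The 50-ng libraries had 66101 and 63595 and their controls 15 and 0, which allows up to 3.69 (exact Poisson interval, counting error only). As a share of the library, the cores took 0.294% and 0.296% of the labelled 500-ng reads and 0.258% (0.169% to 0.378%) and 0.225% (0.139% to 0.343%) of the control reads. At 50 ng the cores took 0.287% and 0.288% of the labelled reads, and 0.440% (0.246% to 0.726%) and 0% (upper limit 0.107%) of the control reads. The labelled share lay within the interval of 3 of the 4 controls and above that of the second 50-ng control.

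5hmC was unevenly spread among CG-poor promoters. At 500 ng the median was 0.432 normalized reads per CG, the quartiles 0.143 and 1.04 and the highest value 9.30. The 371 promoters with most 5hmC held 37.4% of the 500-ng core reads. At the other end, 361 promoters had no 500-ng read in the core. A median promoter had 500-ng reads on 6 CGs, and its richest CG held 38.9% of its reads.

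The 24 promoters with most 5hmC at 500 ng ranged from 3.93 to 9.30 normalized reads per CG, and the 25th, Lkaaear1, had 3.90. The 50-ng libraries took no part in choosing them. There they ranged from 1.95 to 9.24, against a median of 0.443 over all CG-poor promoters, so the lowest was 4.40 times the median. At 50 ng, 12 of the 24 were again among the first 24 and 22 among the first 100. The lowest at 50 ng was Cd300lg, at rank 323.

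**Figure D5:**
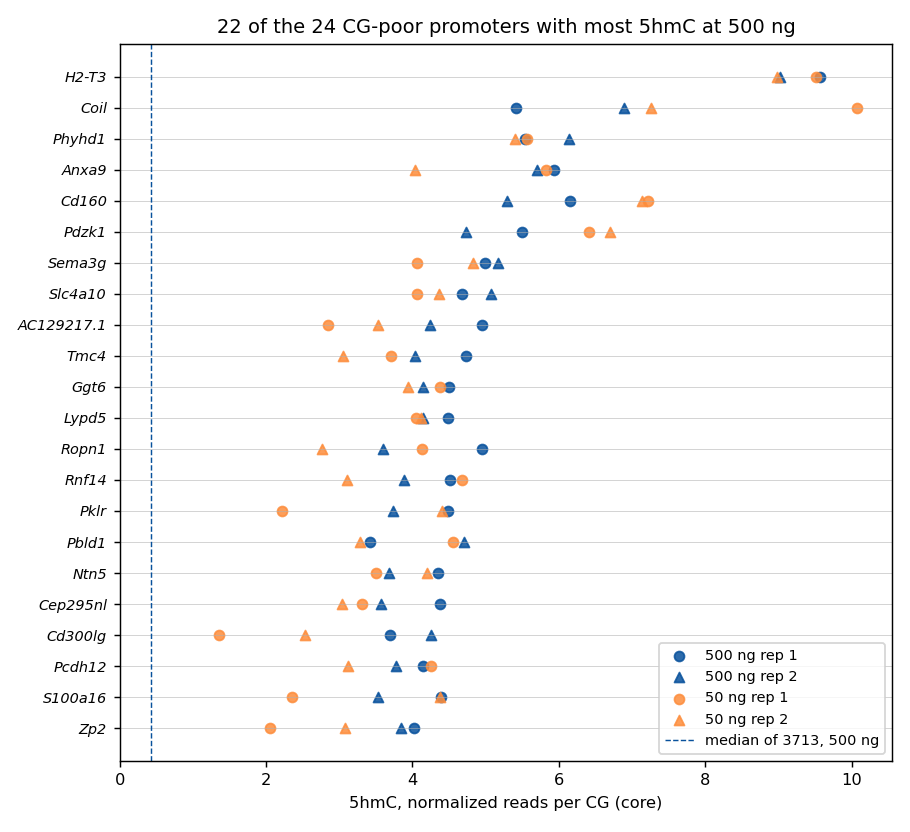
5hmC in the core of 22 of the 24 CG-poor promoters with most 5hmC at 500 ng, as normalized reads per CG (x axis) in each of the 4 libraries at 500 and 50 ng; the dashed line is the median of all 3713 at 500 ng. All points plotted lie above that median of 0.432, also those of 50 ng, which did not choose the promoters.

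First among them was H2-T3, a nonclassical MHC class I gene, with its start at chr17:36190287 on the minus strand and 10 CGs in the core. It had 311 and 288 core reads in the 500-ng libraries, and 219 and 198 in the 50-ng ones. All 4 libraries put it far above the median, and core exceeded flanks 19.9-fold (log2 4.31 ± 0.16 SE, edgeR adjusted p 6.7e-12). It also ranked first in uCG, with 145, 81 and 92 reads, or 4.40 ± 0.81 normalized reads per CG (SD, n = 3). Its 10 CGs all had 500-ng reads, and the richest lay at 363 bp, in a noncoding exon, with 73 and 70 reads. MHC class I genes share sequence, and reads could be split between copies or placed at the wrong one, which can lower or raise counts. The paper names copy number variation as a confounder of coverage. Neither was tested here.

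Coil (chr11:88970252, plus strand) encodes coilin, the scaffold of Cajal bodies. Its printed stretch held 52 and 61 of its 500-ng reads. Soft-masked repeats are not marked there, and how uniquely reads map to it was not tested. The 5 CGs of the Coil core had 88 and 110 reads at 500 ng and 116 and 80 at 50 ng. Its core-to-flank fold for 5hmC was 5.54 (log2 2.47 ± 0.18 SE, adjusted p 3.6e-09), whereas uCG gave a log2 value of -0.015 ± 0.27 (adjusted p 0.965). Phyhd1, a phytanoyl-CoA dioxygenase-like gene, had 180 and 196 reads at 500 ng and 128 and 119 at 50 ng, and was at rank 12 in uCG.

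Anxa9, an annexin gene, had 193 and 182 reads at 500 ng and 134 and 89 at 50 ng. Its richest CG lay in the untranslated exon 34 bp after the start, with 64 and 58 reads at 500 ng and 43 and 40 at 50 ng. In uTOP-seq the core had only 15, 8 and 24 reads, and uCG stood at 0.689, the lowest of the 24. This was still above the class median of 0.466, and uCG was higher in the Anxa9 core than in its flanks (log2 0.96 ± 0.39 SE, adjusted p 0.028).

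Cd160, a receptor of natural killer and T cells, and Pdzk1, a PDZ scaffold of transporters, start 67 bp apart on opposite strands. Their cores share CGs, so that their values are not independent. Cd160 had 160 and 135 reads at 500 ng and 133 and 126 at 50 ng on 8 CGs. Rnf14 and Pcdh12 share a core in the same way. Over the whole class, 82 promoters had a core that overlapped another of the class.

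Sema3g, a secreted semaphorin, had 227 and 231 reads at 500 ng and 131 and 149 at 50 ng over 14 CGs. Core exceeded flanks 3.24-fold for 5hmC (log2 1.70 ± 0.13 SE, adjusted p 8.8e-09), and uCG had a log2 value of 0.46 ± 0.19 SE (adjusted p 0.031). Most of its 5hmC reads, 164 of 227 and 168 of 231 at 500 ng, lay in the upstream stretch printed above. Slc4a10, a sodium bicarbonate transporter of neurons, had 167 and 178 reads at 500 ng and 103 and 106 at 50 ng, with a 10.6-fold excess of core over flanks.

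Zp2 encodes a protein of the zona pellucida of the egg. It had 196 and 184 reads at 500 ng and 71 and 102 at 50 ng, so that each 50-ng library was below both 500-ng libraries also after scaling, as the plot by promoter shows. Its core exceeded the flanks 19.3-fold for 5hmC (log2 4.27 ± 0.23 SE, adjusted p 1.6e-10) and had a log2 value of 2.17 ± 0.41 SE for uCG (adjusted p 7.0e-06). Its flanks had 0.200 normalized reads per CG at 500 ng, far under the class mean of 0.643.

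Ropn1, encoding ropporin of the sperm flagellum, had 193 and 138 reads at 500 ng and 114 and 73 at 50 ng. Cd300lg had 84 and 95 at 500 ng and 22 and 39 at 50 ng. A single CG, in CCGG at 19 bp in the untranslated exon, held 67 and 74 of the 500-ng reads and 17 and 37 of the 50-ng reads, 78.8% of the 500-ng total. Its difference between inputs (log2 50 over 500 ng) did not pass the test.

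Further promoters of the 24 were AC129217.1, Tmc4, Ggt6, Lypd5, Pklr, Pbld1, Ntn5, Cep295nl and S100a16, at 3.95 to 4.60 normalized reads per CG at 500 ng and 3.17 to 4.16 at 50 ng. Pklr encodes the pyruvate kinase of liver and red cells, Ntn5 a netrin and Ggt6 a gamma-glutamyltransferase. All 24 had higher 5hmC in the core than in the flanks, which their choice by core level favours. uCG took no part in that choice. It was higher in the core at 19 of the 24, lower at 0 and not called at 5, against 19.2% higher among all CG-poor promoters tested, and none of the 24 was below the class median of 0.466. The richest CG was CCGG in 9 of the 24 and lay in an untranslated exon in 13. Of all core CGs of the class, 8.55% were CCGG and 17.3% lay in untranslated exons. Both kinds had the highest 500-ng coverage per CG in the class, which favours them as richest CG. The shares among the richest CGs of all CG-poor promoters are not given here. The median GC share of the 24 cores was 52.1%, against 46.7% for the class.

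The 6 promoters with most uCG were H2-T3, Plcb3, Tmem131, Btbd19, Sh3tc1 and Ms4a4d, at 3.12 to 4.40 normalized reads per CG against a class median of 0.466. Plcb3, a phospholipase C, had 120, 74 and 82 uCG reads in the core. Btbd19 had 135, 119 and 94 uCG reads on 15 CGs, and only 36 and 40 5hmC reads at 500 ng and 2 and 15 at 50 ng. In Btbd19 5hmC was lower in the core than in the flanks (log2 -2.12 ± 0.29 SE, edgeR adjusted p 3.9e-06) and uCG higher (log2 0.91 ± 0.12 SE, adjusted p 1.4e-09).

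The promoters where 5hmC rose most from flanks to core had few 5hmC reads in the flanks, which their choice by this change favours. Whether reads can be placed in those flanks was not tested. Zfp988, a zinc finger gene, had 117 and 106 core reads at 500 ng and 101 and 64 at 50 ng, with 15 reads over 60 flank CGs in the 4 libraries together (log2 7.39 ± 0.40 SE, adjusted p 2.0e-10). Cyp2j11, a cytochrome P450, had 21 and 26 reads at 500 ng and 34 and 7 at 50 ng, and 1 read over 21 flank CGs, a ratio per CG of 264 with a 95% counting interval of 46.2 to 10544. Gm8978 had a ratio of 217 (37.5 to 8708), also against 1 read. 1700008P02Rik and Zfp972 had 24 and 20 core reads in the 4 libraries and none in the flanks, so that the core was at least 28.0-fold and 22.5-fold higher, with 3 reads over the group as the floor.

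At the other end, Gm1979, Pcdhb22, Muc3, Rad21l, Gm12790 and Ndn had no 5hmC read in the core in any of the 4 libraries, beside 787 to 1658 reads in the flanks. With the same floor of 3 reads, the core was at least 49.3-fold lower in Gm1979, 24.7-fold in Muc3, 28.3-fold in Gm12790, 20.1-fold in Rad21l, 16.6-fold in Pcdhb22 and 15.5-fold in Ndn. Gm1979, Muc3 and Gm12790 also had no uCG read in the core. Whether reads can be placed there was not tested. Pcdhb22, a clustered protocadherin, had uCG at 0.846 ± 0.34, Rad21l, a meiotic cohesin, at 0.372 ± 0.32 and Ndn, an imprinted gene, at 0.158 ± 0.069 (SD, n = 3), so reads do map to these 3 cores.

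Gene groups were compared by their counts of calls in the test of core against flanks, beside 27.0% higher and 15.4% lower over all CG-poor promoters tested. The groups were chosen by gene symbol with earlier results of these data known. They describe where tissue-specific genes of this class stood.

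Of the 59 ES-cell genes on the list, 14 have a CG-poor start, against 3713 of 19350 starts in all. The median of these 14 was 0.0855 normalized reads per CG at 500 ng and 0.239 at 50 ng, against 0.432 and 0.443 for the class. Their median CG number was 8, against 10 for the class, and its part in the low 5hmC was not tested. Of 12 tested, 1 had higher 5hmC in the core than in the flanks and 4 lower. The one that was higher was Dqx1, a DEAQ-box helicase, with 58 and 54 reads at 500 ng and 36 and 39 at 50 ng. Spp1, encoding osteopontin, had 23 reads in each 500-ng library, 2 and 20 in the 50-ng libraries and a log2 value of -0.32 (adjusted p 0.603). uCG was higher in the core at 3 of the ES-cell genes and lower at 0. At Spp1 the uCG reads were 62, 80 and 41 (adjusted p 3.6e-08).

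Kallikreins and trypsin-like proteases, enzymes of skin, gut and glands, had 41 members, all tested. 5hmC was higher in the core at 17 and lower at 4, with a median of 0.756. Klk7, a protease of skin shedding, had 129 and 128 reads at 500 ng and 86 and 94 at 50 ng. Prss36 had 120 and 134 at 500 ng and 136 and 91 at 50 ng. Prss30 had 143 and 157 at 500 ng and 134 and 96 at 50 ng.

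Keratins and keratin-associated proteins, which build hair and epidermis, had higher 5hmC in the core at 13 and lower at 1 of 45 tested. Krtap4-2 had 50 and 46 reads at 500 ng and 48 and 32 at 50 ng. Its uCG reads were 7, 1 and 3. Krt19 was highest in level, at 1.94, and was not called (adjusted p 0.13).

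Solute carriers, membrane transporters, were the largest group, with 73 members, 71 of them tested. 5hmC was higher in the core at 21 and lower at 16, with a median of 0.723. After Slc4a10 came Slc26a9, an anion transporter, with 159 and 165 reads at 500 ng and 108 and 138 at 50 ng.

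Liver and plasma proteins had 58 members among 80 on the list, with 10 of 52 tested higher in the core and 7 lower and a median of 0.342. Apoa1, the main protein of HDL, had 156 and 146 reads at 500 ng and 122 and 69 at 50 ng (log2 1.98 ± 0.18 SE, adjusted p 3.7e-08). Fgg, the gamma chain of fibrinogen, had 119 and 111 at 500 ng and 44 and 64 at 50 ng. Cytochromes P450, enzymes of drug and steroid metabolism, had 3 higher and 5 lower of 44 tested and a median of 0.219. Sulfotransferases and UDP-glucuronosyltransferases had 3 higher and 2 lower of 23, led by Ugt1a5 at 1.69.

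Immune genes had calls in both directions. Interleukins and their receptors had 6 higher and 10 lower of 36 tested, and chemokines and receptors 6 higher and 3 lower of 29. Il25 had 112 and 99 reads at 500 ng and 60 and 51 at 50 ng, and 2.98 normalized reads per CG in the core against 2.13 in the flanks (adjusted p 0.078). Ccr7, which guides lymphocytes to lymph nodes, had 102 and 148 at 500 ng and 43 and 60 at 50 ng. C-type and killer lectins had 7 higher and 2 lower of 28, the Ms4a family 4 and 1 of 13, and defensins, antimicrobial peptides, 5 and 3 of 22. Defb42 was the richest defensin, with 88 and 78 reads at 500 ng and 35 and 82 at 50 ng.

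Sensory receptors and genes of pregnancy and urinary proteins had medians under that of the class. Medians were 0.0979 for the 19 taste receptors, 0.191 for the 8 trace amine receptors, 0.0313 for the 17 genes of the prolactin family and 0.0220 for the 25 major urinary proteins and lipocalins. Their uCG medians were also under the 0.466 of the class, at 0.290, 0.460, 0.204 and 0, and their median CG numbers were 8, 7.5, 6 and 6, against 10. The part of CG number in their low 5hmC was not tested. Calls were 3 higher and 1 lower of 17 taste receptors, 1 and 0 of 8 trace amine receptors, 1 and 0 of 10 prolactin genes and 1 and 1 of 12 urinary proteins and lipocalins. Lcn2, a lipocalin that binds siderophores, was the exception in level, with 73 and 80 reads at 500 ng and 59 and 79 at 50 ng. The milk genes had 1 higher and 2 lower of 4 tested. Csn3, kappa-casein, was higher in the core (38 and 30 reads at 500 ng), whereas Wap (16 and 12) and Lalba (8 and 4) were lower.

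Of the other groups, Zfp genes had 10 higher and 7 lower of 33 tested, and muscle genes 5 higher and 6 lower of 22, with Myh7b at 105 and 86 reads at 500 ng and 50 and 82 at 50 ng. Crystallins of the lens had 2 higher and 1 lower of 6, led by Cryba1 at 2.18. The 5 globin promoters had a median of 0.111, with 0 higher and 1 lower.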

How the data were processed

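Coverage of 5hmC and uCG was analysed in E14TG2a DNA. The authors trimmed reads, mapped them to mm10, removed duplicates with the same start and length, and assigned reads to CGs; the aligner is not given in the sources used here. The deposited values are read counts per CG and library (strands merged for hmTOP-seq, by strand for uTOP-seq), not normalized or pooled, and duplicates were removed without molecular identifiers, so intervals and floors cover counting error only. All 15 library columns were used. Positions count from 0 in the files and were shifted by 1; all 20383623 autosomal CGs then lay on a CG of GRCm38.p6.

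Coverage is reads divided by CGs, scaled to a library of 10000000 reads. Cores (500 bp each side) and flanks (1 to 5 kb) were compared with edgeR 4.0.16 (R 4.3.3; quasi-likelihood test, library as a term, offset of library total and CG number, at least 5 CGs per region and 20 reads, Benjamini-Hochberg adjustment over all autosomal starts). Inputs were compared with TMM normalization. DESeq2 1.42.0, other filters, windows and left-out libraries were alternatives. Counts were tested on simulated data first. Named promoters are the 24 highest in 5hmC at 500 ng, the 6 highest in uCG, the 6 largest changes from flanks to core each way among those called, any called between inputs, and up to 4 per gene list. Some of these are not reported here. Promoters, lists and tests were chosen with earlier results of these data known.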

Additional observations from a re-analysis of the deposited data

How the results depend on the processing

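The 5hmC ratio of core to flanks stayed above 1 under every alternative. At 500 ng and 50 ng it was 1.41 and 1.40 as a mean over promoters, 1.21 and 1.22 outside soft-masked sequence, and 1.35 and 1.31 without a dense bin; the 5-ng libraries gave 1.29. With alternatives chosen after seeing the data, it was 1.25 and 1.26 at equal neighbouring bases and 1.28 and 1.29 over promoters with a read. At 50 ng it was 1.271 with capped CGs, 1.25 without another gene start within 5 kb and 1.25 without overlapping cores. The uCG ratio of 0.943 turned over to 1.10 as a mean over promoters, 1.01 without another start and 1.14 without a dense bin, and was 0.888 outside soft-masked sequence and 0.955 over promoters with a read; the cause was not tested.

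A core of 250 bp, which leaves fewer promoters tested, gave 292 lower for 5hmC and 342 lower for uCG. Leaving out 1 library, calls between inputs ranged from 0 to 106 higher and 0 to 133 lower, sense calls from 40 to 62 and antisense calls from 41 to 60. Controls had 1.89% (500 ng) and 2.29% (50 ng) of their reads within 5 kb, a wider window by construction. Replicate numbers did not pair the inputs (correlation of deviations 0.019), and a replicate block left 0 calls. A difference of the change from flanks to core between 50 and 500 ng was called at 0 of 3407 promoters (edgeR interaction; 129 at an unadjusted p under 0.05). The 36 promoters named for level or change kept direction and call in all 302 refits that could test them. Not every refit could: 1700008P02Rik and Zfp972 had too few reads in some refits with a library left out. The promoters were named from these same libraries, which favours such agreement. At 306 promoters the minimum of 5 CGs per region and 20 reads was not met, and they were not tested.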
